A study of Mus musculus with 8 samples.

Results

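The alkaline phosphatase family was followed through 4 mouse genes, Alpi (ENSMUSG00000079440), Akp3 (ENSMUSG00000036500), Alppl2 (ENSMUSG00000026246) and Alpl (ENSMUSG00000028766). They were picked out by symbol from the 37620 Ensembl genes of the deposited tables, with earlier results of these data known. All 4 had a gene row in each of 8 RNA sequencing libraries. The libraries came from the epithelium of the mouse small intestine, sorted by flow cytometry, in a series on hydroxymethylcytosine during intestinal differentiation. Of these, 4 held cells with intermediate CD24 (CD24Mid, replicates 1, 3, 5 and 7) and 4 held cells without CD24 (CD24Neg, replicates 2, 4, 6 and 8). CD24 is a surface glycoprotein of crypt cells that is lost on the villus. Cells binding antibody to CD45, a leukocyte antigen, or the lectin Ulex europaeus agglutinin I were removed from both sorts. The labels call the libraries biological replicates. The sources used here do not give strain, genotype, age or the stretch of intestine sampled.

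Alkaline phosphatases are zinc and magnesium enzymes that remove phosphate from many substrates at alkaline pH and sit on the outer face of the membrane through a glycosylphosphatidylinositol (GPI) anchor. The intestinal enzyme is a classical brush border marker of villus enterocytes, is released into the lumen, and is known for taking phosphate off bacterial lipopolysaccharide and extracellular nucleotides. In the mouse, Alpi encodes an isozyme found along much of the gut, Akp3 encodes an isozyme best known from the duodenum, and Alppl2 encodes the embryonic isozyme. Alpl encodes the tissue-nonspecific enzyme of bone, liver, kidney and stem cells.

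The question put to the family was which isozymes accompany differentiation from CD24Mid to CD24Neg cells. Alpi and Akp3 were 14.8-fold and 17.7-fold higher in CD24Neg, Alppl2 did not pass the test, and Alpl was read in CD24Mid alone. By edgeR's quasi-likelihood test on gene-unique reads, at a Benjamini-Hochberg adjusted p under 0.05 over all genes, 2 of the 3 members that passed the filter on low counts were called, both higher in CD24Neg. Over all 12840 genes tested, 69.8% were called in either direction, 34.3% higher in CD24Neg and 35.5% higher in CD24Mid, so a call as such is common in this comparison. The libraries of the sorts did not overlap for these same 2 members, as for 64.4% of genes tested, 31.4% higher in CD24Neg and 33% higher in CD24Mid.

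Alpi, Akp3 and Alppl2 lie side by side on mouse chromosome 1 and resemble each other closely, while Alpl lies on chromosome 4. The share of reads that can be told apart by gene therefore had to be known first. In GENCODE M21 transcripts, aligned coding bases were identical at 81.5% between Alpi and Akp3, at 81.6% between Alpi and Alppl2 and at 78.7% between Akp3 and Alppl2. Alpl was identical to the other members at 64.5% to 66.0% of aligned coding bases. The stretch below, bases 104 to 193 of the Alpi coding sequence and the bases aligned to them, is shown because it holds the longest identical run of Alpi and Akp3, 68 bases. Capitals mark bases that differ from Alpi.
Alpi: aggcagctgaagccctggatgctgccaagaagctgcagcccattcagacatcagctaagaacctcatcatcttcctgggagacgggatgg
Akp3: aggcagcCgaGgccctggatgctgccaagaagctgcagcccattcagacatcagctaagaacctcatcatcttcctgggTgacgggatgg
Alppl2: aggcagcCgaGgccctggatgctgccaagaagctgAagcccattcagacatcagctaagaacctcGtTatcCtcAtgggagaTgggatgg
In this stretch 3 bases of Akp3 and 8 bases of Alppl2 differed from Alpi. Over the whole coding sequence, 35 windows of 50 bases (2.17% of those in Alpi) occurred identically in Akp3, 1 window was shared by Alpi and Alppl2, and none was shared by Akp3 and Alppl2 or by Alpl and another member.

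The deposited tables gave 2 measures for each gene. The count of reads that hit that gene alone served as the main measure, and an estimate that also shares out reads fitting several genes served as the check on paralogs. Reads recovered from the estimate were 0.996 to 0.998 of the unique count for Alpi, 0.993 to 0.997 for Akp3 and 0.981 to 1.0 for Alppl2, so the shared stretches had almost no weight in the values of these genes. For Alpl in the CD24Mid libraries, where reads were few, the estimate was 0.932 to 1.59 times the unique count.

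The sequence before the start of the 3 clustered genes is shown because Alpi and Akp3 moved together in the values below and Alppl2 did not. Each line gives the last 130 bases before the gene's start in the RefSeq promoter table of build GRCm38.p6, on the strand of the gene, at chr1:87101607-87101736 (minus strand) for Alpi, chr1:87124824-87124953 (plus strand) for Akp3 and chr1:87089929-87090058 (minus strand) for Alppl2. Capitals mark the stretches of 9 or more bases that all 3 genes share.
Alpi: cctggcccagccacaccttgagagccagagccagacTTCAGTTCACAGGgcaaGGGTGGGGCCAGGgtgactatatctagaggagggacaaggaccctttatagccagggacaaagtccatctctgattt
Akp3: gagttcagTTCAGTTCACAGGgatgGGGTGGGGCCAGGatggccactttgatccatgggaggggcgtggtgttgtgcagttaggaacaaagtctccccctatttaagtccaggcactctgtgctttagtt
Alppl2: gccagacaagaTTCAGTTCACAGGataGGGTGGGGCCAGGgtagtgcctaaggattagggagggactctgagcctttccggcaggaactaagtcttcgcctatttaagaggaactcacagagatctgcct
The shared stretches were TTCAGTTCACAGG and GGGTGGGGCCAGG, each of 13 bases. On either strand the first was found in 10 of 32817 promoters of the same length in the table (0.0305%) and the second in 16 (0.0488%). Both counts include the 3 genes from which the stretches were taken. Both stood in the same order in each gene, with the first base of TTCAGTTCACAGG at -94 in Alpi, -122 in Akp3 and -119 in Alppl2.

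Letters known from factors of the gut were then looked up on both strands of the full promoters, 250 bases before to 50 after the start. CAAAGTCCA, a form of the HNF4 motif, occurred in Alpi, at -19, and not in the other promoters, against 0.475% of all promoters. Its core CAAAGT (14.4% of all promoters) occurred 1 time in Alpi, 2 times in Akp3 and 1 time at each of the 2 listed starts of Alpl, and was not found in Alppl2. GGGTGGGGC, a KLF-type motif that lies inside the second shared stretch, occurred in all 3 clustered genes and in 2.82% of all promoters. A variant of the TATA box, TATTTAA, occurred in Akp3 and Alppl2 (4.50% of all promoters). The TATA box letters TATAAA (13.6%) occurred on the reverse strand in Alpi, at -33, and at the second start of Alpl, at -192. The core of the CDX motif, TTTAT (40.0%), occurred in the same promoters at these same positions, so the 2 matches overlap and are not separate sites. The full CDX motif TTTATG (11.9%) and the GATA motif AGATAA (11.2%) were not found in any member's window. These matches describe the letters and say nothing of binding.

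Unique reads per library totalled 15473071 to 17537818 in CD24Mid and 11340782 to 18928233 in CD24Neg. Levels are given in CPM, unique reads relative to the library's TMM-scaled size. TMM weighted libraries by factors of 1.34 to 1.42 in CD24Mid and 0.697 to 0.757 in CD24Neg. Mitochondrially encoded genes took 8.03% to 9.17% of reads in CD24Mid and 27.7% to 37.0% in CD24Neg. Over all genes tested the median log2 fold change was 0.015 with TMM, 0.96 on unscaled totals and 0.24 with upper-quartile factors, so small differences below turn on the scaling. On unscaled totals 69.8% of genes were called higher in CD24Mid against 12.9% in CD24Neg, and with upper-quartile factors 43.6% in CD24Mid against 27.3% in CD24Neg. The sort was visible in the markers. All 10 enterocyte markers were higher in CD24Neg and all 10 crypt stem and dividing cell markers were higher in CD24Mid by edgeR's test. The summed level of 6 goblet cell markers was 3401 to 5287 CPM in CD24Mid, against 12213 to 34453 CPM in CD24Neg, although Ulex-positive cells had been removed. Sums of 6 T and NK lymphocyte markers were 6.09 to 17.0 CPM in CD24Mid, against 29.2 to 503 CPM in CD24Neg, after the removal of CD45-positive cells. Sums of 8 B and plasma cell markers were 396 to 1012 CPM in CD24Mid, against 24.3 to 55.0 CPM in CD24Neg.

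**Figure D1:**
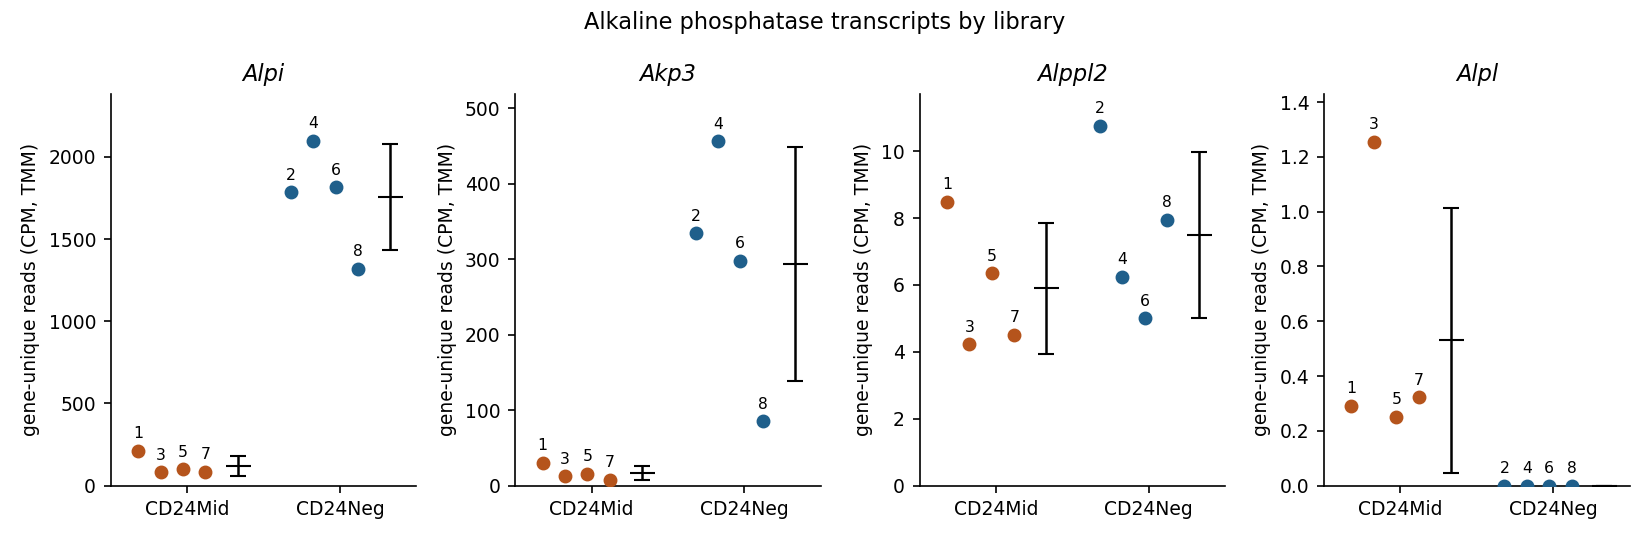
Unique reads of each member in each library, in CPM after TMM scaling, on an axis of its own for each gene. Points are libraries numbered by replicate, and the bar beside each group is the mean ± SD of 4 libraries. Alpi and Akp3 lie higher in every CD24Neg library than in any CD24Mid library, the groups of Alppl2 overlap, and Alpl is at 0 in all CD24Neg libraries.

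Alpi, the isozyme of most of the gut, made up most of the family in both sorts. It had 4366, 1752, 2357 and 2070 unique reads in CD24Mid replicates 1, 3, 5 and 7, against 14085, 18139, 24979 and 11959 in CD24Neg replicates 2, 4, 6 and 8. After scaling these were 212, 81.5, 98.6 and 83.3 CPM in CD24Mid, against 1784, 2099, 1814 and 1320 CPM in CD24Neg. The groups did not overlap, and the highest CD24Mid library, replicate 1, stood well apart from its 3 fellows. Group means were 119 ± 62.4 CPM in CD24Mid, against 1754 ± 322 CPM in CD24Neg (SD, n = 4 each). The log2 fold change was -3.89 ± 0.33 (SE, edgeR adjusted p = 2.15e-06). Limma on the deposited estimate gave -4.01 ± 0.30 (adjusted p = 6.23e-06), where 28.7% of 15950 genes were called higher in CD24Neg. In a ranking of all genes by level per length, Alpi stood at place 1460 in CD24Mid and at place 118 in CD24Neg.

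Replicate 1, the CD24Mid library with the most Alpi, also had the highest enterocyte marker sum of its group, 2541 CPM against 1580, 1856 and 1940 CPM in replicates 3, 5 and 7. Its crypt marker sum was the lowest, 4120 CPM against 5362, 5182 and 5633 CPM. In CD24Neg the enterocyte sum was 32399, 44939, 53798 and 33010 CPM and the crypt sum 241, 582, 306 and 602 CPM. The part of this mixture in the Alpi and Akp3 levels was not tested, and in bulk samples fewer cells of a type and less RNA per cell cannot be told apart. For comparison, the 10 enterocyte markers had log2 fold changes of -2.68 to -6.76 with a median of -4.55, so Alpi and Akp3 fell inside the range of these markers.

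Akp3, the duodenal isozyme, showed a fold difference of like size at a lower level and with more spread. Its unique reads were 625, 267, 372 and 202 in CD24Mid and 2640, 3946, 4107 and 771 in CD24Neg. This gave 30.3, 12.4, 15.6 and 8.13 CPM in CD24Mid, against 334, 457, 298 and 85.1 CPM in CD24Neg. Again no CD24Neg library reached down to the CD24Mid range, but CD24Neg replicate 8 lay far below the other 3. The means were 16.6 ± 9.63 CPM in CD24Mid, against 294 ± 155 CPM in CD24Neg (SD, n = 4 each), with a log2 fold change of -4.15 ± 0.55 (SE, edgeR adjusted p = 6.32e-05). The estimate gave -4.10 ± 0.55 by limma (adjusted p = 0.000216). On the deposited estimate the exact two-sided permutation test gave p = 0.0286 for Alpi and for Akp3, the smallest that 4 libraries against 4 allow.

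Alppl2, the embryonic isozyme, was read at low levels in every library of both sorts. It had 175, 91, 152 and 112 unique reads in CD24Mid and 85, 54, 69 and 72 in CD24Neg. Scaled, these were 8.48, 4.23, 6.36 and 4.51 CPM in CD24Mid, against 10.8, 6.25, 5.01 and 7.95 CPM in CD24Neg. The groups overlapped. Means were 5.89 ± 1.97 CPM in CD24Mid, against 7.49 ± 2.49 CPM in CD24Neg (SD, n = 4 each). The log2 fold change of -0.34 ± 0.29 did not pass (SE, edgeR adjusted p = 0.315), and its 95% interval of -0.90 to 0.23 covers differences in either direction. The sign depended on the scaling, since unscaled totals gave a log2 fold change of 0.61 (adjusted p = 0.0607) and upper-quartile scaling gave -0.12. In FPKM (the deposited estimate relative to length and mapped fragments, without TMM) the mean was 4.33 ± 1.37 in CD24Mid, against 2.88 ± 0.871 in CD24Neg (SD, n = 4 each, exact two-sided permutation test on the estimate p = 0.114).

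**Figure D2:**
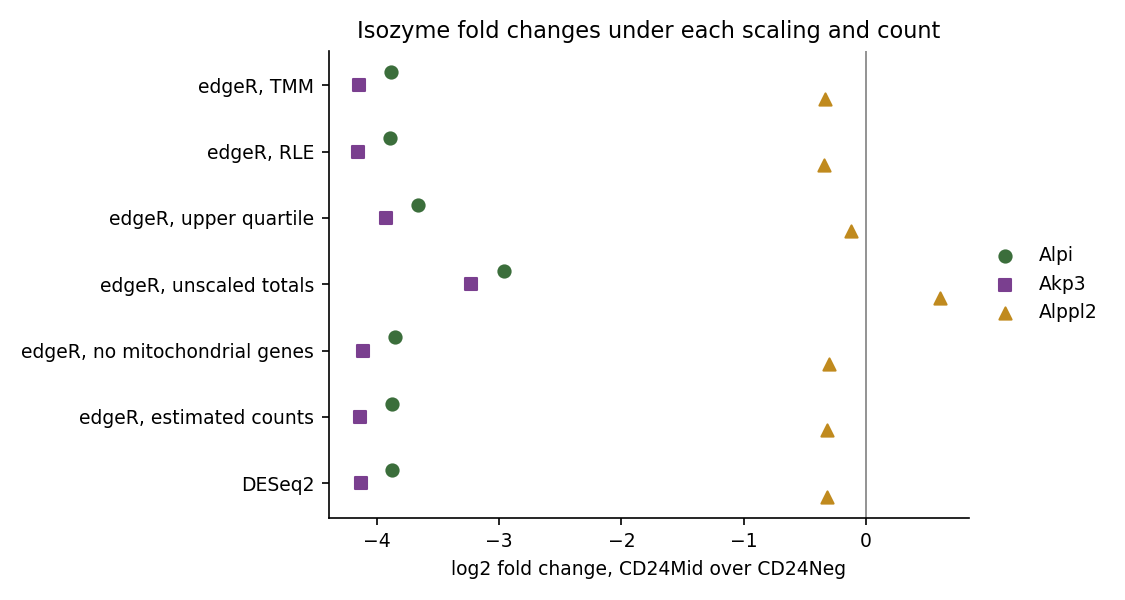
Log2 fold change of CD24Mid over CD24Neg for Alpi, Akp3 and Alppl2 under 7 combinations of tool, count and scaling, with 1 symbol for each gene. Alpi and Akp3 stay between -2.96 and -4.16 throughout, while Alppl2 lies near 0 and is above it on unscaled totals, at 0.61.

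Alpl, the tissue-nonspecific isozyme, had 6, 27, 6 and 8 unique reads in the CD24Mid libraries and 0 in each of the 4 CD24Neg libraries. Its CD24Mid levels were 0.291, 1.26, 0.251 and 0.322 CPM. The 3 lower of these were of the order of the limit that a count of 0 sets in a CD24Neg library, 0.218 to 0.380 CPM (3 reads, counting error only), so only replicate 3 stood clearly above it. Replicate 3 held 57.4% of the 47 Alpl reads. Over the groups, CD24Mid stood at 0.517 CPM (exact 95% Poisson interval 0.380 to 0.688, counting error only). CD24Neg was limited to 0.0762 CPM by 3 reads over the group. The CD24Mid level was 6.78 times this limit, and the exact lower 95% limit of the ratio of pooled counts was 5.30-fold. Both values pool the libraries and leave out the spread between them. Without replicate 3 the CD24Mid level was 3.78 times the limit, and without CD24Neg replicate 6, the deepest library, it was 4.41 times the limit. The gene did not pass the filter on low counts. With no filter, edgeR called it (adjusted p = 0.00423), as it called 25.1% of 21402 genes higher in CD24Mid.

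Markers of other cell types were set beside these few reads. CD24Mid replicate 3 had the highest sums of its group for Paneth markers (181 CPM, against 74.1, 94.0 and 78.6 CPM in replicates 1, 5 and 7) and tuft markers (9.90 CPM, against 3.64, 4.77 and 3.90 CPM), and was highest in 5 of 6 Paneth and 5 of 5 tuft markers. Its enteroendocrine sum was also the highest (786 CPM, against 265, 616 and 472 CPM), through Gip, the gene of an incretin hormone, at 410 CPM against 29.1, 92.9 and 58.1 CPM. Without Gip that sum was 376 CPM in replicate 3, against 235, 523 and 413 CPM in replicates 1, 5 and 7, and 4 of the 6 enteroendocrine markers were highest in replicate 5. In CD24Neg the full sums ran from 74.0 to 115 CPM for enteroendocrine, 61.1 to 226 CPM for Paneth and 2.91 to 10.3 CPM for tuft markers. B and plasma cell markers were not highest in replicate 3, at 857 CPM against 910, 396 and 1012 CPM. Of the 9 neutrophil and myeloid markers, 4 (S100a8, S100a9, Mpo and Elane) were at 0 reads in all 8 libraries, and the list summed to 20.8 to 34.7 CPM in CD24Mid, against 11.9 to 25.4 CPM in CD24Neg. Fibroblast and smooth muscle markers summed to 0.121 to 0.291 CPM in CD24Mid, against 0.116 to 1.39 CPM in CD24Neg. Endothelial markers summed to 3.01, 2.46, 2.38 and 3.02 CPM in CD24Mid replicates 1, 3, 5 and 7, against 2.03 to 4.31 CPM in CD24Neg. Of the 2 tested, 1 was higher in CD24Mid (35.5% over all genes tested). The part of these cells in the Alpl reads was not tested.

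Levels of different genes were compared per length, as the deposited estimate in FPKM (fragments relative to length and mapped fragments, without TMM). In every library the order was Alpi, Akp3, Alppl2 and Alpl, which had no read in CD24Neg, and the ranges of neighbours in that order did not overlap within either sort. Alpi averaged 78.1 ± 38.8 in CD24Mid and 617 ± 131 in CD24Neg, and Akp3 averaged 15.6 ± 8.62 in CD24Mid and 148 ± 80.7 in CD24Neg (SD, n = 4 each). The whole family summed to 98.4 ± 48.2 in CD24Mid and 768 ± 211 in CD24Neg (n = 4 each; p = 0.0286, exact two-sided permutation). With TMM factors the sum was 71.6 ± 37.4 in CD24Mid, against 1059.5 ± 262 in CD24Neg (SD, n = 4 each), a wider gap. As a share of the family sum, Alpi made up 79.3 ± 2.79% in CD24Mid and 81.6 ± 6.56% in CD24Neg (SD, n = 4 each, exact permutation p = 0.657), and the sign of this difference turned without CD24Neg replicate 8, at 0.84 percentage points. Akp3 made up 15.5 ± 2.65% in CD24Mid and 17.98 ± 6.69% in CD24Neg (SD, n = 4 each, exact permutation p = 0.514). Alppl2 made up 4.63 ± 0.840% in CD24Mid and 0.407 ± 0.187% in CD24Neg (SD, n = 4 each, exact permutation p = 0.0286, the smallest possible).

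Ratios between members within a library do not depend on scaling between libraries. The log2 ratio of Akp3 to Alpi, in unique reads per length, was -2.29, -2.20, -2.15 and -2.84 in CD24Mid and -1.90, -1.69, -2.09 and -3.44 in CD24Neg. The groups overlapped, and CD24Mid replicate 7 and CD24Neg replicate 8 lay lowest in their sorts. The means were -2.37 ± 0.32 in CD24Mid and -2.28 ± 0.79 in CD24Neg (SD, n = 4 each), a difference of -0.09 (exact two-sided permutation test p = 0.83). CD24Neg replicate 8 decided this value. Without it the difference was -0.48 (exact p = 0.0571, with 4 libraries against 3). The Akp3 share then differed by -5.68 percentage points, CD24Mid minus CD24Neg (exact permutation p = 0.0286, the smallest that 4 libraries against 3 allow). Each library was left out in turn, and the share passed in this run alone, so these p-values do not establish a difference. Leaving out CD24Mid replicate 7, CD24Neg replicate 2 or CD24Neg replicate 4 turned the sign of the log2 ratio difference, to 0.07, 0.04 and 0.11.

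The ratio of Alppl2 to Alpi separated the sorts. Its log2 values were -4.49, -4.11, -3.80 and -4.05 in CD24Mid and -7.22, -8.24, -8.34 and -7.22 in CD24Neg. No CD24Neg library came near the CD24Mid range. In linear terms Alpi stood 13.9 to 22.4 times above Alppl2 in CD24Mid and 149 to 325 times above it in CD24Neg. The log2 difference of 3.64 gave an exact two-sided permutation p = 0.0286 (n = 4 each), the smallest possible, and ran from 3.45 to 3.82 with any 1 library left out. This ratio was examined after the values of both genes had been seen. The difference between Alppl2 and Alpi in how they moved with the sort was itself larger than the spread between libraries, and scaling between libraries does not enter it.

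**Figure D3:**
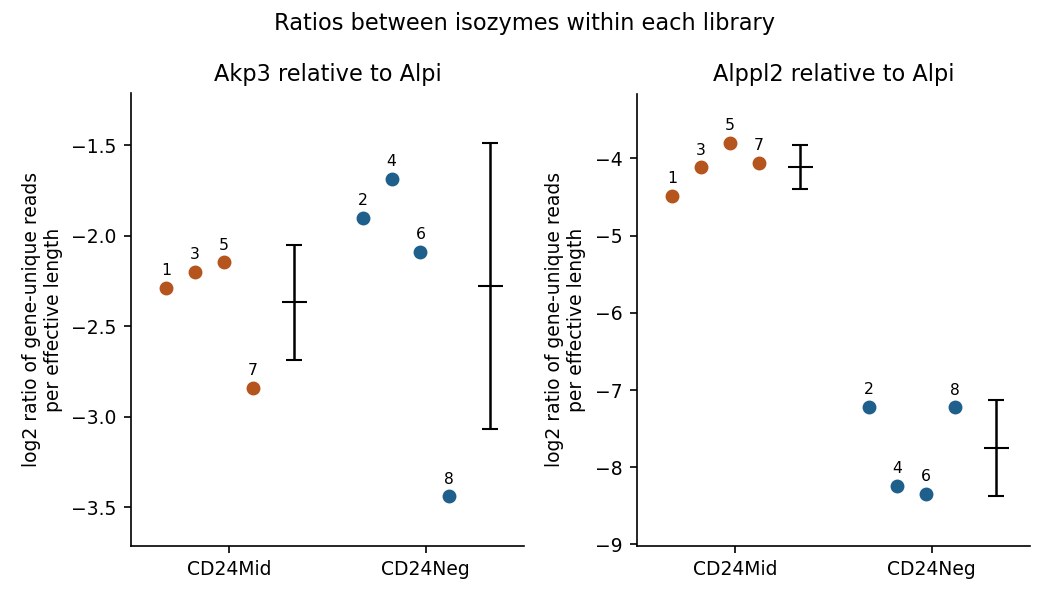
Log2 ratio of unique reads per effective length of Akp3 to Alpi (left) and of Alppl2 to Alpi (right) in each library. Points are libraries numbered by replicate, bars are the mean ± SD of 4 libraries. The left panel overlaps between sorts, with CD24Mid replicate 7 and CD24Neg replicate 8 lowest, and the right panel shows no overlap.

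Since Akp3 is known from the duodenum, markers of gut region were set beside the ratio of Akp3 to Alpi. Pdx1, a factor of the proximal intestine, stood at 12.7, 10.2, 11.9 and 7.56 CPM in CD24Mid, against 18.6, 16.7, 13.3 and 8.06 CPM in CD24Neg. Gata4, a factor of duodenum and jejunum, stood at 195, 172, 172 and 138 CPM in CD24Mid, against 186, 170, 185 and 128 CPM in CD24Neg. Onecut2, a further factor of the proximal list, stood at 85.7, 89.7, 136 and 125 CPM in CD24Mid, against 82.7, 126, 102 and 99.0 CPM in CD24Neg. Replicates 7 and 8, which had the lowest ratio of Akp3 to Alpi in their sorts, were also the lowest in Pdx1 and in Gata4, but not in Onecut2, which was lowest in replicates 1 and 2. Fabp6, the bile acid binding protein of the ileum, stood at 57.5, 23.4, 9.41 and 29.3 CPM in CD24Mid, against 1101, 748, 283 and 1481 CPM in CD24Neg. Slc10a2, the ileal bile acid importer, reached 13.6 CPM in CD24Neg replicate 8, against 3.80, 5.21 and 6.90 CPM in replicates 2, 4 and 6 and 0.0837 to 0.194 CPM in CD24Mid, from 11 reads in all. CD24Neg replicate 8 was the highest of its sort in these 2 of the 7 ileal markers and in none of the other ileal markers. Slc51b, a subunit of the basolateral bile acid exporter, was at 7.27, 2.88, 3.64 and 3.66 CPM in CD24Mid, against 82.6, 58.4, 77.2 and 81.6 CPM in CD24Neg, highest in replicate 2.

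The proximal list as a whole was less uniform than Pdx1 and Gata4. Of its 6 markers, 3 were lowest in replicate 7 among CD24Mid libraries, one of them Hamp2 with 11 reads in all, and 4 were lowest in replicate 8 among CD24Neg libraries. Slc40a1, the iron exporter ferroportin, was at 51.6, 21.2, 29.5 and 27.3 CPM in CD24Mid, lowest in replicate 3, and at 139, 140, 84.0 and 64.8 CPM in CD24Neg, lowest in replicate 8. The proximal list summed to 295 to 350 CPM in CD24Mid, against 302 to 463 CPM in CD24Neg. Of its 5 tested members 2 were higher in CD24Neg, near the 34.3% over all genes tested. On unscaled totals 2 were higher in CD24Mid and 1 in CD24Neg (69.8% and 12.9% over all genes tested). All 7 ileal markers were higher in CD24Neg, and 6 of them on unscaled totals. Their sums were 170 to 312 CPM in CD24Mid, against 2418 to 3460 CPM in CD24Neg. The part of the stretch of gut sampled in the Akp3 values was not tested.

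**Figure D4:**
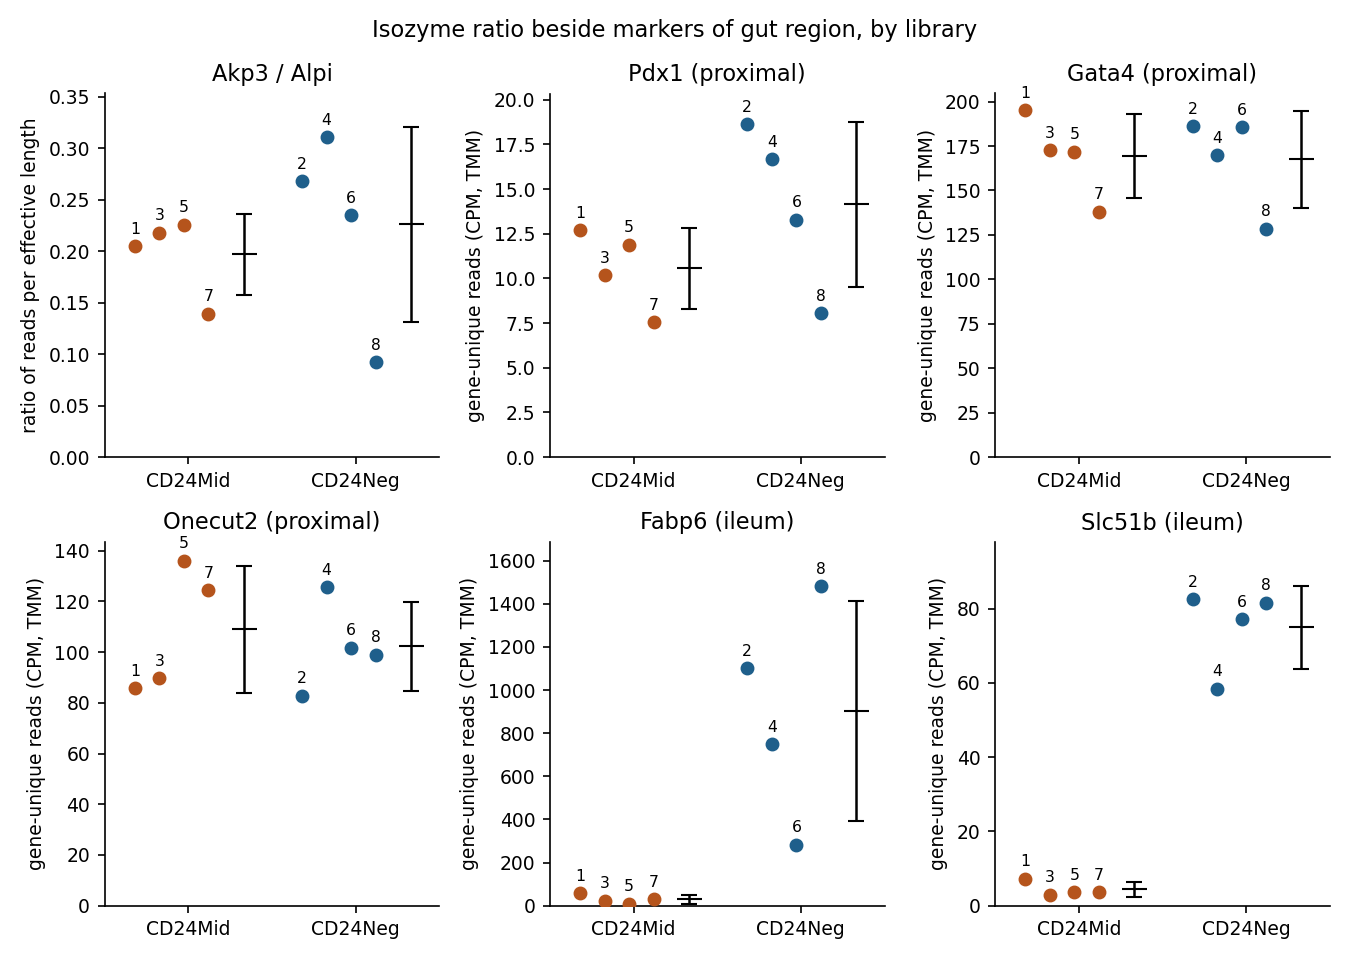
Linear ratio of Akp3 to Alpi (unique reads per effective length, first panel) beside the levels in CPM of the proximal factors Pdx1, Gata4 and Onecut2 and of the ileal genes Fabp6 and Slc51b. Points are libraries numbered by replicate and bars are the mean ± SD of 4 libraries. CD24Mid replicate 7 and CD24Neg replicate 8 are lowest of their sort in the ratio, Pdx1 and Gata4 but not in Onecut2, and CD24Neg replicate 8 is highest in Fabp6 but not in Slc51b.

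Genes whose profile over the 8 libraries lay nearest to each member were named by the root mean square difference of centred log2 CPM, among 7627 genes. Nearest to Alpi were Slc2a5, the fructose transporter (0.158), Slc6a20a, an imino acid transporter (0.186), Reg1, a secreted lectin (0.222), Cidec, a lipid droplet protein (0.223), and Sult2b1, a sterol sulfotransferase (0.229). Akp3 itself lay at 0.522 from Alpi. For Akp3 the nearest were Otop3, a proton channel (0.345), Reg1 (0.464), the cytochrome Cyp2c66 (0.503), Alpi (0.522) and the aldehyde dehydrogenase Aldh1a7 (0.543). Alppl2 lay at 1.87 from Alpi and was nearest to Cebpb (0.148), Fuk (0.188), the phosphate importer Slc20a1 (0.193), Myd88 (0.225) and Rhob (0.233), of which none passed the edgeR test with TMM on all 8 libraries. On unscaled totals all 5 passed with the sign turned, higher in CD24Mid. With TMM but without CD24Mid replicate 1, Fuk, Slc20a1 and Myd88 passed, and Fuk also passed without CD24Neg replicate 6. These distances describe the 8 libraries, and the separation of the sorts weighs most in them.

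No tested gene next to the cluster differed by as much as Alpi or Akp3. In the RefSeq order of chromosome 1, the 4 genes before the cluster include Pde6d, at a log2 fold change of -0.41 (edgeR adjusted p = 0.0144), and Cops7b, at 0.42 (adjusted p = 0.00336). Dis3l2, next to Alppl2, was at 0.23 and did not pass (adjusted p = 0.119), and Nppc had 6 reads over the CD24Mid libraries and 0 over the CD24Neg libraries. On the far side, after Akp3, Ecel1 had 18 reads in CD24Mid and 28 in CD24Neg, Chrnd had 2 in CD24Mid and 0 in CD24Neg, and Prss56 and Chrng had 0 in both. Pde6d lost its call without CD24Neg replicate 6, with upper-quartile factors and with no filter, and its sign turned on unscaled totals. Dis3l2 passed, higher in CD24Mid, without CD24Neg replicate 2, with upper-quartile factors, on unscaled totals and with no filter. Beside Alpl on chromosome 4, Hspg2, the basement membrane proteoglycan perlecan, was higher in CD24Mid at a log2 fold change of 2.78, while the direct neighbour Rap1gap did not pass (0.36), though it did without CD24Neg replicate 2 and on unscaled totals. Ece1 passed at -0.43 (adjusted p = 0.0057), lost its call with upper-quartile factors and turned its sign on unscaled totals.

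Genes that build the GPI anchor were called in both directions. Of 29 listed genes 28 were tested, and 6 were higher in CD24Mid against 5 in CD24Neg by edgeR's test. These were smaller shares than the 35.5% and 34.3% of all genes tested that were called in those directions. The median log2 fold change was 0.06, against 0.015 over all genes. These counts depended on scaling, with 26 higher in CD24Mid and none in CD24Neg on unscaled totals (69.8% and 12.9% over all genes tested). With upper-quartile factors there were 12 in CD24Mid against 2 in CD24Neg (43.6% and 27.3% over all genes tested). The count higher in CD24Neg was 2 or 3 without CD24Mid replicate 3, 5 or 7 or CD24Neg replicate 2, 4 or 8, and at most 6 with any library left out. Pigw, an inositol acyltransferase of the pathway, averaged 7.69 ± 0.512 CPM in CD24Mid, against 4.04 ± 1.01 CPM in CD24Neg (SD, n = 4 each, log2 fold change 0.93). Pigb, a mannosyltransferase, and Pigh, a subunit of the first enzyme, were higher in CD24Mid by log2 0.91 and 0.81. Mppe1, which trims the anchor after attachment, stood at 11.2 ± 2.17 CPM in CD24Mid, against 24.8 ± 1.39 CPM in CD24Neg (log2 fold change -1.14). Pigc was at -0.83. On unscaled totals Mppe1 did not pass (-0.20, edgeR adjusted p = 0.176) and the sign of Pigc turned.

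Zinc transporters were higher in CD24Neg in 4 of 5 genes and in CD24Mid in none, against 34.3% and 35.5% of all genes tested. Their median log2 fold change was -0.78. On unscaled totals 1 gene was higher in each sort, against 12.9% of all genes in CD24Neg and 69.8% in CD24Mid. Slc39a4, the zinc importer of the enterocyte's luminal face, averaged 71.8 ± 21.2 CPM in CD24Mid, against 280.0 ± 45.5 CPM in CD24Neg (SD, n = 4 each, log2 fold change -1.96, adjusted p = 1.02e-05). Slc39a5, an importer of the basolateral face, was at -0.95 and did not pass on unscaled totals. Slc30a5 and Slc30a6, which load zinc into enzymes of the secretory pathway, were at -0.78 and -0.73, and the sign of both turned on unscaled totals. The third of these loaders, Slc30a7, did not pass, at -0.14.

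Transcription factors reported to act on intestinal alkaline phosphatase genes were split. Of 13 genes, all tested, 3 were higher in CD24Mid against 7 in CD24Neg (35.5% and 34.3% over all genes tested). The median log2 fold change was -0.37. On unscaled totals 9 were higher in CD24Mid and 2 in CD24Neg, close to the 69.8% and 12.9% over all genes tested. Hnf4g, a nuclear receptor of villus cells, averaged 156 ± 37.1 CPM in CD24Mid, against 595 ± 159 CPM in CD24Neg (SD, n = 4 each, log2 fold change -1.93, adjusted p = 2.37e-05). Klf4, a zinc finger factor of differentiated cells, averaged 57.2 ± 10.2 CPM in CD24Mid, against 185 ± 34.3 CPM in CD24Neg (log2 fold change -1.69, adjusted p = 6.37e-06). Both kept their sign and call under every alternative run. The paralog Hnf4a went the other way, at 917 ± 23.7 CPM in CD24Mid, against 653 ± 22.9 CPM in CD24Neg (log2 fold change 0.49, adjusted p = 0.00204). Cdx1 was higher in CD24Mid, at 0.62, Cdx2 did not pass (0.06, adjusted p = 0.740), and Zfp148, a zinc finger factor, passed narrowly at 0.45 (adjusted p = 0.0412) and lost its call with RLE scaling and without CD24Mid replicate 5 or 7 or CD24Neg replicate 2, 4 or 8.

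Among enzymes that break down extracellular nucleotides, 6 of 7 genes were tested, with a median of -1.89. Of these, 4 were higher in CD24Neg and none passed in CD24Mid (34.3% and 35.5% over all genes tested). Without CD24Mid replicate 1 or CD24Neg replicate 2, 4, 6 or 8, 1 or 2 genes passed in CD24Mid. With upper-quartile factors and on unscaled totals 1 gene passed in CD24Mid against 4 in CD24Neg. Over all genes tested the shares were 43.6% and 27.3% with upper-quartile factors and 69.8% and 12.9% on unscaled totals. Enpp3, a nucleotide pyrophosphatase of the brush border, averaged 3.82 ± 0.111 CPM in CD24Mid, against 130 ± 60.5 CPM in CD24Neg (SD, n = 4 each, log2 fold change -5.08, adjusted p = 4.50e-07). Entpd8, which removes phosphate from extracellular ATP, averaged 52.6 ± 9.20 CPM in CD24Mid, against 294 ± 58.5 CPM in CD24Neg (log2 fold change -2.48, adjusted p = 6.44e-07). Nt5e, the GPI-anchored nucleotidase CD73, averaged 1.18 ± 0.394 CPM in CD24Mid, against 9.90 ± 4.37 CPM in CD24Neg (log2 fold change -3.06, adjusted p = 3.10e-05).

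Transporters and enzymes that handle phosphate and pyrophosphate were higher in CD24Neg in 5 of 7 tested genes and in CD24Mid in 1. Over all genes tested these shares were 34.3% and 35.5%. The median was -1.09. On unscaled totals 2 genes were higher in each sort, against 69.8% of all genes tested in CD24Mid and 12.9% in CD24Neg. Slc34a2, the sodium phosphate importer of the brush border, averaged 4.52 ± 2.18 CPM in CD24Mid, against 254 ± 78.9 CPM in CD24Neg (SD, n = 4 each, log2 fold change -5.82, adjusted p = 2.71e-07). Phospho1, a phosphatase that works with Alpl in bone mineral, averaged 2.09 ± 0.532 CPM in CD24Mid, against 9.82 ± 2.85 CPM in CD24Neg (log2 fold change -2.23). Ank, a pyrophosphate exporter, was at -1.22 and did not pass on unscaled totals. The housekeeping phosphate importer Slc20a2 was higher in CD24Mid, at 0.82.

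Of 11 genes that recognise or inactivate lipopolysaccharide, a substrate of the intestinal enzyme, 8 were tested, with a median of -0.19. Of these, 2 were higher in CD24Mid and 2 in CD24Neg, smaller shares than the 35.5% and 34.3% over all genes tested. On unscaled totals 5 were higher in CD24Mid against 1 in CD24Neg, near the 69.8% and 12.9% over all genes tested. Cd14, a GPI-anchored co-receptor, averaged 8.86 ± 2.44 CPM in CD24Mid, against 2.08 ± 1.01 CPM in CD24Neg (SD, n = 4 each, log2 fold change 2.10, adjusted p = 0.000154). Of the 4 neutrophil and myeloid markers tested, Lyz2 (1.67) and Csf1r (1.93, edgeR adjusted p = 0.0432) were also higher in CD24Mid. Itgam (0.46, edgeR adjusted p = 0.0829) and Cd68 (0.69, edgeR adjusted p = 0.0584) did not pass. The part of such cells in the Cd14 level was not tested. Ticam1, the adaptor TRIF, averaged 31.8 ± 4.09 CPM in CD24Mid, against 104 ± 13.5 CPM in CD24Neg (log2 fold change -1.71, adjusted p = 9.20e-07). Tlr4, the receptor itself, did not pass the filter on low counts, at 0.129 CPM in CD24Mid, against 0.147 CPM in CD24Neg.

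Acid phosphatases, which work at low pH and belong to other protein families, differed in both directions. Of 8 listed genes 7 were tested, and 3 were higher in CD24Mid and 4 in CD24Neg (35.5% and 34.3% over all genes tested). The median was -0.69. On unscaled totals 4 were higher in CD24Mid and 1 in CD24Neg (69.8% and 12.9% over all genes tested). Acpp, the prostatic type, averaged 70.2 ± 6.84 CPM in CD24Mid, against 21.2 ± 4.75 CPM in CD24Neg (SD, n = 4 each, log2 fold change 1.73, adjusted p = 3.05e-06). Acp5, the tartrate-resistant type, averaged 61.9 ± 10.8 CPM in CD24Mid, against 155 ± 18.1 CPM in CD24Neg (log2 fold change -1.33, adjusted p = 1.02e-05). Both kept their direction on unscaled totals, while the sign of the lysosomal Acp2, at -0.93, turned there. Pdxk, the kinase that makes phosphorylated vitamin B6, a substrate of Alpl, was at -0.60, and its sign turned on unscaled totals.

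**Figure D5:**
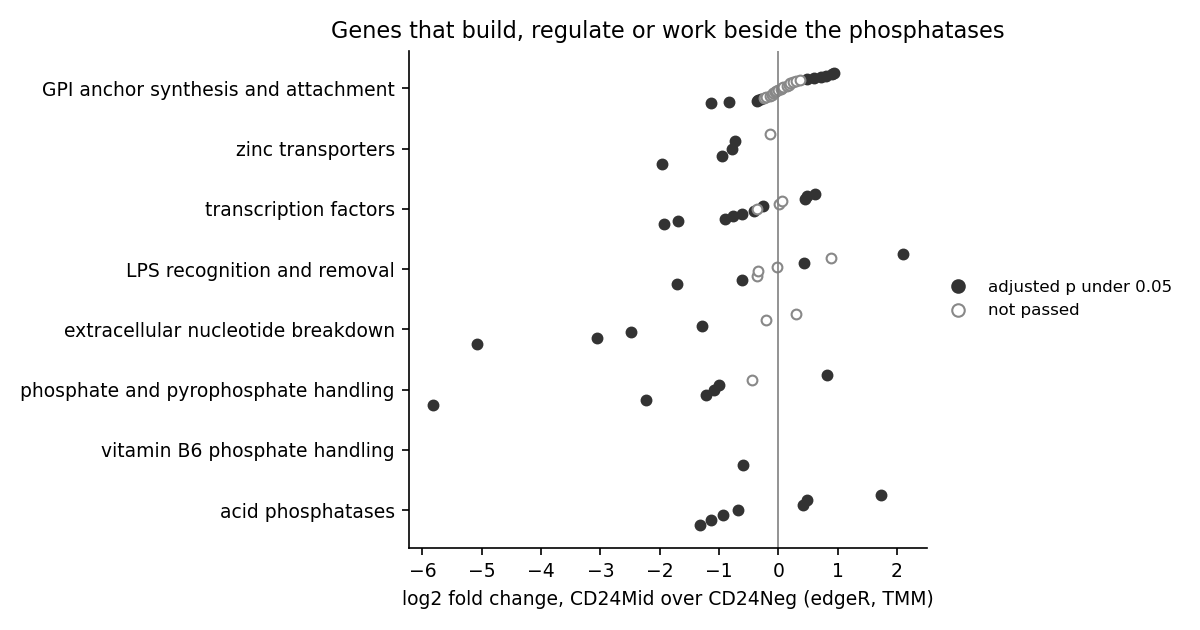
Log2 fold change of CD24Mid over CD24Neg (edgeR, TMM) for each tested gene of the 8 lists. Each point is a gene, filled where the adjusted p is under 0.05. The GPI anchor genes crowd around 0, and the lowest points are Slc34a2 at -5.82 and Enpp3 at -5.08.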

How the data were processed

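Total RNA from flow-sorted cells was made into TruSeq RNA libraries, per the labels' protocols. The submitters' processing notes name Bowtie 0.12.8 and the mouse build NCBIM37. The column names of the deposited tables are those of MMSEQ, and the sources used here give neither its version nor the annotation or strand setting. Overlapping antisense reads cannot be told apart. The authors deposited, for each of 37620 genes, whole-number counts of reads unique to that gene, without normalisation. The authors also deposited a natural log estimate of expression, with shared reads divided among genes, and another column, the gene's effective length. The scale of the estimate is not stated in a label. It was taken to be the natural log of FPKM, because unique counts put on that scale rose along it with a slope of 0.965 to 0.981 over the 8 libraries. Gene symbols came from the reference tables for 32897 IDs. Sequences came from RefSeq (GRCm38.p6) and GENCODE M21, of a later build than the files.

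The count test was the quasi-likelihood F test of edgeR 4.0.16 (R 4.3.3), robust, with TMM factors, filterByExpr and the group alone in the model, adjusted by Benjamini-Hochberg over 12840 genes with a threshold of 0.05. SE values are the log2 fold change over the root of F. The estimate, shifted by the TMM factors, was tested with limma 3.58.1, and DESeq2 1.42.0 was an alternative. Ratios and shares were compared with exact two-sided permutation tests over libraries (SciPy 1.17.1). Sequences were aligned with Biopython 1.88. The edgeR fit was checked on simulated counts in which few genes changed, in random directions. The simulated sorts did not differ in composition, so the check does not bear on the choice of scaling. Scaling by upper quartile, RLE or unscaled totals, leaving out mitochondrial genes, no filter, estimated counts and leaving out each library were tried. Mapped fragments ran from 12401668 to 20445879 per library, of which 89.1% to 92.6% were unique to 1 gene. Intervals and limits from a count of 0 cover counting error only.

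Members and lists were chosen with earlier results of these data known. Besides the members, the genes named were up to 3 called genes of each list and direction by size of change, the 5 nearest profiles among genes averaging 4 or more log2 CPM, the 4 protein-coding neighbours on each side, and markers. Other genes of a list that the text names (Slc30a6, Slc30a7, Cdx2, Tlr4, Lyz2, Csf1r, Itgam and Cd68) were chosen after their values were seen. Pdxp and Ldlrad2 had no matching ID. 1 listed gene and a stretch of Alpl sequence are not reported here.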

Additional observations from a re-analysis of the deposited data

Results flagged for a closer look

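3 values stood apart within their group of 4 libraries by Dixon's test at 95%, which chance alone meets in about 1 of 20 groups. In each sort the test was run on the levels of the members, both ratios to Alpi and the shares of Alpi, Akp3 and Alppl2. These quantities rest on the same reads and are not independent. Alpi in CD24Mid replicate 1, at 212 CPM, was far above the other 3 CD24Mid libraries. Without it the Alpi log2 fold change was -4.32. Alpl in CD24Mid replicate 3, at 1.26 CPM, was far above the other CD24Mid libraries. The share of Akp3 in the summed family level of CD24Mid replicate 7, at 11.6%, was far below those of the other CD24Mid libraries, which were 16.4%, 16.8% and 17.3%.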

How the results depend on the processing

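Alpi and Akp3 kept their direction and their call under all 15 alternatives, with log2 fold changes of -4.32 to -2.96 for Alpi and -4.61 to -3.23 for Akp3. With 1 library left out they ran from -4.32 to -3.74 for Alpi, -4.61 to -3.81 for Akp3 and -0.56 to -0.08 for Alppl2. Alppl2 was at 0.61 on unscaled totals, and its deposited estimate was at 0.58 with no TMM shift (limma adjusted p = 0.0949); neither passed. With 1 library left out, the difference in the log2 ratio of Akp3 to Alpi ran from -0.48 to 0.11, with 0.07 without CD24Mid replicate 7, 0.04 without CD24Neg replicate 2 and 0.11 without CD24Neg replicate 4. The Alpi share difference ran from -4.13 to 0.84 percentage points, reversed without CD24Neg replicate 8. The Akp3 share difference ran from -5.68 to -0.59 points, past the threshold only without CD24Neg replicate 8. With 1 library left out, the fold of the pooled CD24Mid level of Alpl over the CD24Neg limit ran from 3.78 to 8.03. It was 13.04 on unscaled totals.

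On unscaled totals 8959 genes were called higher in CD24Mid and 1659 in CD24Neg, against 4557 in CD24Mid and 4410 in CD24Neg with TMM. Over the 8 role lists, TMM gave 15 genes higher in CD24Mid against 32 in CD24Neg. With upper-quartile factors 23 were higher in CD24Mid, and on unscaled totals 48 were higher in CD24Mid and 11 in CD24Neg. Over all genes tested, TMM called 35.5% higher in CD24Mid and 34.3% in CD24Neg. Upper-quartile factors called 43.6% higher in CD24Mid, and unscaled totals called 69.8% in CD24Mid and 12.9% in CD24Neg. The list counts thus moved with the scaling as the counts over all genes did. Of 840 alternatives for the 56 other named genes, 784 kept sign and call. Log2 fold changes that reversed on unscaled totals were 0.11 for Pigc, 0.58 for Pigl, 0.16 for Slc30a5, 0.032 for Rxra, 0.33 for Tollip, 0.34 for Pdxk, 0.014 for Acp2, 0.53 for Pde6d, 0.51 for Ece1, 0.87 for Eif4g3, 0.53 for Sh2d5, 0.67 for Cebpb, 0.56 for Fuk, 0.50 for Slc20a1, 0.59 for Myd88 and 0.75 for Rhob. Upper-quartile factors reversed Eif4g3 (0.14) and Rhob (0.025), and Eif4g3 also reversed with no filter (0.028); with 1 library left out it ran from -0.18 to 0.10, above 0 without CD24Neg replicate 8. The cause was not tested.

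Depth limits Alpl most, with 47 reads in all, and then Alppl2, with 54 to 175 reads in a library. No paired analysis was run, because the labels give no pairing and no replicate number is shared between the sorts. Odd numbers are in CD24Mid and even ones in CD24Neg. Whether libraries of adjacent numbers came from the same animals is not stated in the labels. The tests treated all 8 libraries as independent and would leave out such a pairing. The Alppl2 to Alpi ratio, the fold of Alpl over the CD24Neg limit and their alternatives were added after the data were seen.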
